A study of Mus musculus with 6 samples.

Results

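Complex I (NADH:ubiquinone oxidoreductase) is the entry point of electrons from NADH into the mitochondrial respiratory chain, and most of its subunits are encoded in the nucleus. The nuclear subunits were taken as the protein-coding genes whose symbol begins with Ndufa, Ndufb, Ndufc, Ndufs or Ndufv followed by a number, together with Ndufab1 and without the Ndufaf assembly factors. The rule matched 38 genes, of which 37 were among the 22310 genes of the table, and Ndufa4l2 is not analysed here. By their place in the enzyme, 7 of the 37 were matrix arm core subunits, 9 matrix arm accessory subunits and 19 membrane arm accessory subunits. The other two were Ndufab1, an acyl carrier protein found in both arms, and Ndufa4, which carries a complex I name but is now placed with cytochrome c oxidase.

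RNA was sequenced from mammary tumor cells of MMTV-PyMT mice, in which the mouse mammary tumor virus promoter drives the polyoma middle T oncogene in mammary epithelium. The study kept this model on the FVB/N background, and the labels give the genotype as WT and no age for these samples. Dissociated cells were plated in DMEM/F12 with serum, insulin and EGF and sorted by flow cytometry a day later, without any other treatment. Metastasis-initiating cells (MICs) were the Lin-CD24+CD90+ fraction and non-MICs the Lin-CD24+CD90- fraction, with 3 libraries of each, numbered 1 to 3 in both. The labels do not say whether the numbers are separate mice, so p-values measure only the spread between these libraries. The comparison asks whether the transcripts of complex I differ between MICs and their tumor counterparts, within same-numbered pairs and across all libraries.

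In the assembled enzyme, the core subunits of the matrix arm carry the flavin and the iron-sulfur clusters that pass electrons from NADH to ubiquinone. The membrane arm pumps protons and has a core encoded entirely by mitochondrial DNA. Accessory subunits surround both arms and are needed for assembly and stability. Nuclear and mitochondrial genes must therefore both be expressed for the enzyme to form.

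Each library held between 31467281 and 51759769 recovered reads, and replicate 3 was the deepest in both populations. Values are normalised read counts, which the authors scaled so that a library sums to 35000000, and differences are on the scale of log2(normalised read count + 1), MIC minus non-MIC. Apart from Ndufs5, each member had between 152 and 13370 reads in every library. Thy1, which encodes the sorting marker CD90, lay between 301 and 1508 in MICs and between 12.6 and 21.1 in non-MICs. Cd24a, present in both gates, differed by -0.01. The 10 basal or myoepithelial markers summed to 557280, 26938 and 79341 across MIC replicates 1, 2 and 3 and to 163280, 24558 and 48331 across those of non-MICs. Of these, 7 were higher in MICs in all 3 pairs, against 12.5% of all genes. In limma with the replicate number as a block, 6 of the 10 passed an adjusted p-value of 0.05, against 0.13% of all genes. The 10 luminal markers summed to between 230870 and 660000 in MICs and between 295740 and 779990 in non-MICs. Lower in MICs in all pairs were 3 of the 10, against 18.8% of all genes. Summed markers of fibroblasts lay between 845 and 2638 in MICs and between 623 and 1237 in non-MICs (4 of 10 higher in all pairs). Those of leukocytes lay between 211 and 1996 in all libraries (7 of 9 in the table, none of them higher or lower in all pairs), those of endothelium between 15.9 and 53.9 (6 of 7), and the only erythroid marker in the table at or below 3.17. The part of these cell types in the results for complex I was not tested. In sorted bulk samples, fewer cells of a type and less RNA per cell cannot be told apart.

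Replicate 3 stood apart from replicates 1 and 2 in both populations, and this bears on every count below. In MICs, 32 of the 37 members had their lowest value in replicate 3, against 32.9% of all genes, and in non-MICs 27 of 37, against 30.4%. The median member was 0.52 lower on the log2 scale in the replicate 3 libraries than in the others. Ndufs5, a small protein on the intermembrane-space side of the membrane arm, was the extreme case. Among MICs its normalised read count was 787 in replicate 1, 808 in replicate 2 and 4.73 in replicate 3, and among non-MICs it was 546, 690 and 2.81. The low values of replicate 3 rested on 7 and 4 reads. A processed pseudogene copy, BC002163 (GRCm38 chr16:42955631-42955949, plus strand), showed the mirror image, at 14.0, 16.7 and 705 for MICs, against 11.6, 7.40 and 633 for non-MICs. Added together, gene and copy gave sums of 801, 824 and 710 for MICs, against 558, 697 and 636 for non-MICs, and replicate 3 was no longer apart. The copy held between 1.06% and 2.09% of that sum in replicates 1 and 2 and 99.3% and 99.6% in replicate 3.

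**Figure D1:**
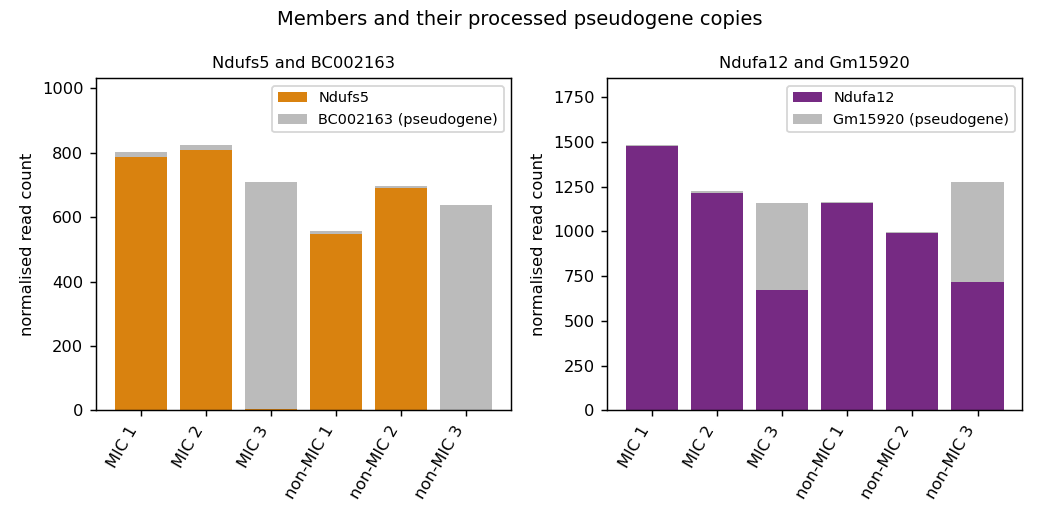
Stacked bars show the normalised read count of Ndufs5 (left) and Ndufa12 (right) with their processed pseudogene copies in each of the 6 libraries. In replicate 3 of both populations the copy BC002163 holds nearly all of the Ndufs5 sum, and the copy Gm15920 holds 42.0% and 43.8% of the Ndufa12 sum.

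Ndufa12, a matrix arm accessory subunit, behaved likewise with the copy Gm15920 (chr5:130188395-130188796, plus strand), which held 42.0% and 43.8% of the sum in replicate 3 and between 0.27% and 0.73% elsewhere. Each sum lay between 998 and 1484. The copies are close to the spliced messages. BC002163 matched the Ndufs5 transcript in 317 of 319 aligned bases and Gm15920 matched that of Ndufa12 in 400 of 402. The stretches below show how little separates a read of the gene from a read of the copy. They come from the GENCODE transcripts, with coding positions counted from 1 at the A of the start codon, and capitals mark the bases that differ. For Ndufs5 the differences are T81C and A105G (gene base first, then the copy's base), within coding positions 16 to 105 and chr16:42955646-42955735 of the copy.
Ndufs5: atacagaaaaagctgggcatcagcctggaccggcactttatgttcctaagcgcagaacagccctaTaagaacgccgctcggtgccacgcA
BC002163: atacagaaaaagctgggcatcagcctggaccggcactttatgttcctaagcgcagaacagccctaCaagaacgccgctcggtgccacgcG
For Ndufa12 the difference in coding positions 46 to 135 is A135G, at the end of the stretch that the copy holds at chr5:130188404-130188493.
Ndufa12: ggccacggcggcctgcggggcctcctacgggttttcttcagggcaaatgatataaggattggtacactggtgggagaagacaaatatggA
Gm15920: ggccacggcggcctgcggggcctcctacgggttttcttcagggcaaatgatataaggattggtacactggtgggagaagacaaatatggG
Over the whole table, 11 genes were more than 20-fold lower and 54 more than 20-fold higher in both replicate 3 libraries than in the others, and 39 of the 54 were annotated pseudogenes. Reads of these members and their copies are therefore uncertain in replicate 3, and the cause was not tested. With 50-base windows, 6 members shared at least 10% of their transcript with a pseudogene in the table. The copies of the other four, Ndufs3, Ndufs6, Ndufb4 and Ndufab1, did not exceed 11.9 in any library.

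The nuclear subunits were, as a group, slightly higher in MICs in pairs 1 and 2 and level in pair 3. The median difference over the 37 members was 0.31, against -0.04 over all genes, and 32 of the 37 lay above 0, where 45.8% of all genes did. Among 9103 protein-coding genes in the same range of mean level, 39.0% lay above 0. Of the 468 among them with a principal transcript under 1000 bases, 83.5% did, and 23 of the 37 members are as short. In pair 1 all 37 were higher in MICs, with a median of 0.49. Pair 2 had 30 of 37 higher, with a median of 0.60 and a range from -0.56 to 1.45. Pair 3 had 18 of 37 higher, with a median of -0.0048. Of the 37, 14 were higher in MICs in all 3 pairs, against 12.5% of all genes, and 0 were lower in all 3, against 18.8% of all genes. Without replicate 3, the median was 0.49, against 0.000247 over all genes, 33 lay above 0, and 30 of 37 (81.1%) were higher in both pairs, against 28.6% of all genes. Summed, the members took 0.307%, 0.342% and 0.190% of the reads of MIC libraries 1, 2 and 3, against 0.224%, 0.242% and 0.195% for the non-MIC libraries.

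**Figure D2:**
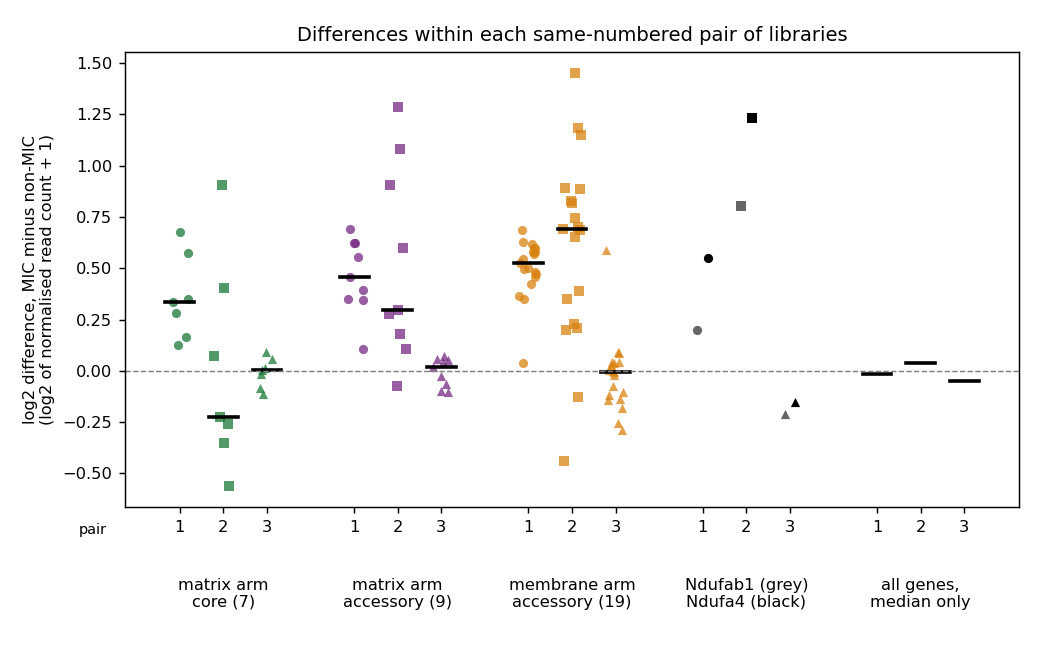
Each point is the log2 difference of a member within pair 1, 2 or 3 (circles, squares, triangles), split by place in the enzyme, and black bars are medians. The medians of the membrane arm accessory subunits are 0.53 in pair 1, 0.69 in pair 2 and -0.0048 in pair 3, and those of all genes are -0.02, 0.04 and -0.05.

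No member passed the test. In limma without a block, 0 of 37 passed an adjusted p-value of 0.05, as did 0% of all genes, and 1 member, Ndufs4, had an unadjusted p-value under 0.05, against 1.44% of all genes. With the replicate number as a block, 0 of 37 passed, against 0.13% of all genes, and 13 had an unadjusted p-value under 0.05 and were higher in MICs, against 5.24% of all genes. On the lower side there were 0 of 37, against 5.97%. Among the 468 short protein-coding genes in the same range of mean level, 101 were under that p-value and higher in MICs, and 6 lower. Of the 23 members as short, 10 were under it and higher. The 45 nuclear subunits of complexes II to V had 14 higher and 0 lower. edgeR with the block called 0 members, against 1.04% of all genes called higher and 0.372% called lower, and 14 members had an unadjusted p-value under 0.05, against 11.7% of all genes. By DESeq2 0 members were called with the block, against 0.596% of all genes, and 0 without it, against 0.00452%. Under that tool 15 members had an unadjusted p-value under 0.05 with the block, against 8.58% of all genes, and 1 without it, against 1.2%. In limma with the block, the number of members at an unadjusted p-value under 0.05 was 19 without the replicate 3 libraries, against 10.2% of all genes. It was 2 without replicate 1, against 3.7% of all genes, and 0 without replicate 2, against 9.85%. The median difference was 0.12 without MIC replicate 2, 0.20 without MIC replicate 1, 0.21 without non-MIC replicate 3 and 0.65 without MIC replicate 3.

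Across members, pairs 1 and 2, which share no library, were ordered alike. Spearman's rho between the differences of pairs 1 and 2 was 0.68 over the 37 members and 0.48 over 9103 protein-coding genes in the same range of mean level, and genes are not independent replicates.

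**Figure D3:**
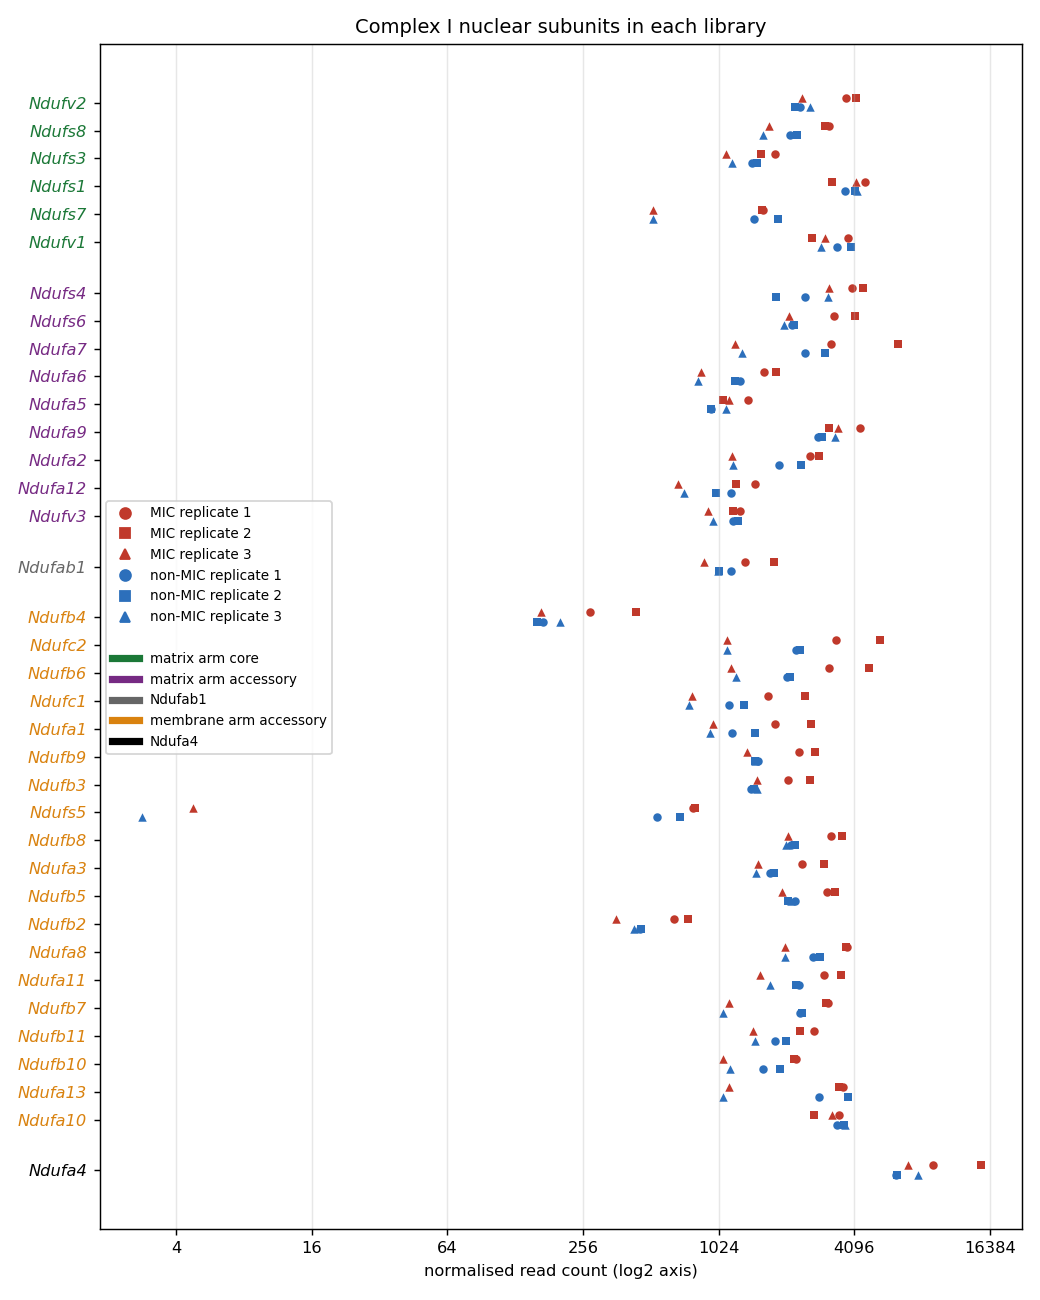
Normalised read count of 36 of the 37 members on a log2 axis, with MICs in red, non-MICs in blue and a symbol for each replicate. For most members the triangles of replicate 3 lie lowest and close together, and red circles and squares lie to the right of blue ones in the accessory subunits more often than in the core.

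The core of the matrix arm showed the smallest difference. Of its 7 subunits, 4 lay above 0, with a median of 0.03. All 7 were higher in MICs in pair 1 (median 0.33), 3 in pair 2 (median -0.23) and 4 in pair 3 (median 0.0024). None passed the adjusted p-value in any fit. Each SE from here on is from limma without the block unless the block is named.

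At the NADH end of the arm, Ndufv1 holds the flavin that accepts electrons from NADH. In the order of replicates 1, 2 and 3, which holds for all members from here on, its normalised read count was 3855, 2665 and 3036 in MICs, against 3441, 3938 and 2916 in non-MICs. The groups overlapped, with MICs higher in pairs 1 and 3 and lower in pair 2 by 0.56 (difference -0.11 ± 0.22 SE, limma adjusted p = 1). Ndufv2, its partner with an iron-sulfur cluster, was the member of the core with the largest difference. It was at 3768, 4158 and 2397 in MICs and at 2359, 2222 and 2594 in non-MICs. MICs were 1.60 and 1.87 times as high in pairs 1 and 2 and 0.924 times in pair 3 (difference 0.49 ± 0.25 SE, unadjusted p = 0.0889 and limma adjusted p = 1, with the block 0.0284 and 0.423).

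Ndufs1, the large subunit that carries further clusters, was at 4549, 3245 and 4174 in MICs and at 3737, 4143 and 4226 in non-MICs. MICs were thus above non-MICs in pair 1 and below them in pairs 2 and 3, by 0.35 and 0.02 (difference -0.03 ± 0.20 SE). Ndufs8, which carries the clusters next on the path to ubiquinone, was at 3157, 3022 and 1716 in MICs and at 2117, 2284 and 1612 in non-MICs. No other core subunit was higher in each of the 3 pairs, here by 0.58, 0.40 and 0.09 (difference 0.36 ± 0.29 SE, limma adjusted p = 1 and 0.448 with the block).

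Ndufs7 holds the last cluster before ubiquinone. It was at 1602, 1599 and 523 in MICs and at 1468, 1872 and 523 in non-MICs. Here the step between replicate 3 and the other libraries, -1.64 on the log2 scale, was far larger than the difference between populations (-0.03 ± 0.60 SE, or 0.17 SE with the block). Ndufs3, a core subunit without a cluster, was at 1812, 1585 and 1105 in MICs and at 1437, 1507 and 1173 in non-MICs (difference 0.11 ± 0.25 SE). In its case MICs were higher in pairs 1 and 2 and lower in pair 3.

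Among the 9 accessory subunits of the matrix arm, 8 lay above 0, with a median of 0.27, and 5 were higher in MICs in all 3 pairs. Medians by pair were 0.46, 0.29 and 0.02. Ndufs4, needed for a stable matrix arm and known for the fatal encephalopathy of mice that lack it, had the largest difference of all 37 members. The gene lies on the minus strand of chr13:114287795-114388258. Its normalised read count was 3998, 4484 and 3154 in MICs (mean 3879 ± 673 SD, n = 3), against 2477, 1835 and 3118 in non-MICs (mean 2477 ± 641 SD, n = 3). Its groups did not overlap, which held for 1 of the 37 members. The share of all genes without overlap was not counted, so no conclusion is drawn from it. The gap rested on replicate 3 of each population, which were nearly equal (1.01 times, against 1.61 and 2.44 times in pairs 1 and 2). The difference was 0.67 ± 0.26 SE, with limma adjusted p = 1 (unadjusted p = 0.0338). With the block the adjusted value was 0.417, and by edgeR with the block it was 0.0596, the closest of any member to the threshold.

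Ndufs6, a zinc-binding subunit beside the NADH end, was at 3321, 4118 and 2098 in MICs and at 2155, 2200 and 1999 in non-MICs. Each MIC library was above its own partner, by 0.62, 0.90 and 0.07, but MIC replicate 3 lay below non-MIC replicates 1 and 2 (difference 0.53 ± 0.27 SE, limma adjusted p = 1 and 0.417 with the block). Ndufa7 had a steeper pattern across replicates, at 3241, 6418 and 1206 in MICs, against 2466, 3036 and 1297 in non-MICs. Its difference of 0.46 ± 0.60 SE was smaller than the spread between replicates. With the block, which takes out the steps between replicates, the SE was 0.21 (limma unadjusted p = 0.0462, adjusted p = 0.438). Ndufa5, Ndufa6 and Ndufa9 were higher in MICs in all 3 pairs, with differences between 0.26 and 0.33. Without the block each difference was smaller than 1.5 times its SE. With the block the SEs were 0.175, 0.175 and 0.172, and the limma unadjusted p-values 0.154, 0.0830 and 0.152. Ndufa6 belongs to the LYR-motif proteins that hold the acyl carrier, and Ndufa9 binds NADPH. The thioredoxin-like Ndufa2 (0.24) and Ndufa12 (0.18, or 0.17 with its copy added) were higher in pairs 1 and 2 and lower in pair 3. Ndufv3, at the tip with Ndufv1 and Ndufv2, was at 1276, 1179 and 920 in MICs and at 1184, 1243 and 962 in non-MICs, a difference of -0.01 ± 0.23 SE.

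Ndufab1, the acyl carrier protein, was at 1339, 1797 and 881 in MICs and at 1166, 1029 and 1020 in non-MICs. MICs were higher by 0.20 and 0.80 in pairs 1 and 2 and lower by 0.21 in pair 3 (difference 0.26 ± 0.29 SE).

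The membrane arm accessory subunits had the largest median, 0.41, with 18 of 19 above 0 and 8 of 19 (7 without Ndufs5) higher in MICs in all 3 pairs. All 19 were higher in pair 1, 17 in pair 2 and 9 in pair 3. Without Ndufs5 the median was 0.38, with 17 of 18 above 0. By neighbouring mitochondrial subunit, the median was 0.30 for the 3 next to ND1, 0.47 for the 6 next to ND2, 0.34 for the 5 next to ND4 and 0.44 for the 5 next to ND5. None of the 5 next to ND4 was higher in MICs in pair 3.

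Next to ND2, Ndufc2 was at 3381, 5319 and 1112 in MICs and at 2261, 2341 and 1110 in non-MICs. The libraries of pair 3 were nearly equal (1.00 times, higher in MICs by only 0.0028 on the log2 scale). In pairs 1 and 2 MICs were higher by 0.58 and 1.18 on that scale. The difference was 0.59 ± 0.58 SE, or 0.21 SE with the block (limma adjusted p = 1 and 0.418 with the block). Ndufa1, a small protein encoded on the X chromosome, was at 1815, 2622 and 968 in MICs and at 1173, 1486 and 940 in non-MICs, above its partner in each pair by 0.63, 0.82 and 0.04. Its difference was 0.50 ± 0.38 SE, or 0.19 SE with the block (limma unadjusted p = 0.231, with the block 0.0190, and adjusted p = 0.418 with the block). Ndufc1 had a difference of 0.50 and Ndufa11 of 0.29. With the block their limma unadjusted p-values were 0.0201 and 0.130, and the adjusted ones 0.418 and 0.545. Ndufa10, which resembles a nucleoside kinase, was the lowest of all 37 in this comparison. It was at 3518, 2721 and 3276 in MICs and at 3432, 3684 and 3716 in non-MICs, slightly higher in MICs in pair 1 and lower by 0.44 and 0.18 in pairs 2 and 3 (difference -0.19 ± 0.19 SE). Ndufs5 had a difference of 0.45 with an SE several times as large, since replicate 3 of both populations was near 0. With the block its SE was 0.26. With the reads of BC002163 added the difference was 0.31 ± 0.22 SE, with 0.52, 0.24 and 0.16 in pairs 1, 2 and 3.

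In the ND4 part, Ndufb6 was at 3149, 4739 and 1160 in MICs and at 2053, 2132 and 1220 in non-MICs. Again replicate 3 was lowest in both populations, and MICs were above non-MICs only in pairs 1 and 2. The difference was 0.57 ± 0.51 SE, or 0.21 SE with the block (limma adjusted p = 1 and 0.418 with the block). Ndufb4 was at 275, 442 and 166 in MICs and at 170, 161 and 203 in non-MICs. Within pair 2 MICs were 2.75 times as high, more than for any other member in any pair, and within pair 3 0.818 times (difference 0.62 ± 0.42 SE). Ndufb5, Ndufb10 and Ndufb11 had differences between 0.19 and 0.34.

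The distal ND5 part held Ndufb3, at 2070, 2609 and 1513 in MICs, against 1420, 1469 and 1518 in non-MICs. Its MIC replicates 1 and 2 lay above all non-MIC libraries and replicate 3 among them (difference 0.46 ± 0.24 SE, unadjusted p = 0.101 and limma adjusted p = 1, with the block 0.0292 and 0.423). Ndufb9, another LYR-motif protein, and Ndufb8 had differences of 0.46 and 0.44. With the block their limma unadjusted p-values were 0.0378 and 0.0270, and the adjusted ones 0.426 and 0.423. Ndufb7, a cysteine-rich protein facing the intermembrane space, had a difference of 0.29. Ndufb2 was at 648, 749 and 360 in MICs and at 458, 461 and 430 in non-MICs, higher in pairs 1 and 2 and lower by 0.26 in pair 3. Nearest the matrix arm, Ndufa3 and Ndufa8 were higher in MICs in all 3 pairs, with differences of 0.41 and 0.30. In pair 3 Ndufa8 was nearly equal, higher by only 0.0016. With the block their limma unadjusted p-values were 0.0368 and 0.101, and the adjusted ones 0.425 and 0.512. Ndufa13, with a difference of 0.10, was higher in pairs 1 and 3.

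Ndufa4 had the highest level per length of the 37. Its normalised read count was at 9161, 14871 and 7095 in MICs and at 6253, 6318 and 7885 in non-MICs, so that MICs were higher in pairs 1 and 2 (1.47 and 2.35 times) and lower in pair 3 (0.900 times). The difference was 0.54 ± 0.29 SE (limma adjusted p = 1 and 0.423 with the block). Leaving out Ndufa4 and Ndufs5 gave a median of 0.30 over the other 35 members, with 30 above 0. Ndufb1-ps, annotated in GENCODE as a noncoding RNA and therefore outside the rule, was at 3022, 4926 and 2148 in MICs, against 2177, 2185 and 2284 in non-MICs.

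Levels can be compared between subunits only per length. Per kb of merged exons, averaged over the 6 libraries, Ndufa4 was highest at 6225, followed by Ndufb6 at 3655, Ndufa1 at 3581 and Ndufa2 at 3525, and Ndufb2 was lowest, below Ndufb4 at 123. Per kb of the principal transcript (APPRIS annotation, an alternative chosen after seeing that isoforms with retained introns lengthen the merged exons), Ndufa4 was again highest, at 14094, and Ndufb4 was lowest, at 243. Ndufb2 moved to 1137 on that scale. Exons of 3 members overlap another gene on the same strand (Ndufb2, Ndufb8 and Ndufb9) and those of 14 overlap a gene on the other strand. Libraries were stranded, but the setting used in counting is not given in the sources used here, so reads of such partners may be shared.

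Members with a short message had the larger median difference, although the largest single difference was that of Ndufs4, with 1698 bases. Ndufc1 (1249 bases, 0.50) and Ndufv2 (1697 bases, 0.49) were also long with large differences. The 23 members with a principal transcript under 1000 bases had a median difference of 0.41, and the 14 longer ones of 0.14. Protein-coding genes in the same range of mean level also had a higher median among short messages, 0.27 over 468 genes under 1000 bases and -0.10 over 8635 longer genes. Above 0 lay 22 of the 23 short members, against 83.5% of the 468 genes, and 10 of the 14 longer members, against 36.5% of the longer genes. In pairs 1, 2 and 3, 23, 22 and 12 of the short members were higher in MICs, against 87.6%, 78.8% and 36.8% of the 468. In all 3 pairs 11 of the 23 were higher, against 26.1%. Spearman's rho between length and difference was -0.41 over the 37 members and -0.34 over 9103 genes, and for GC content of the transcript it was -0.41 and -0.44. The core subunits have longer messages than the membrane arm subunits (median 1623 against 704 bases), and 5 of the 7 are over 1000 bases. Among members of 1000 bases or more, the median was 0.03 for the 5 core subunits and 0.26 for the 9 others. These are correlations across genes, and the part of length in the differences between members was not tested.

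**Figure D4:**
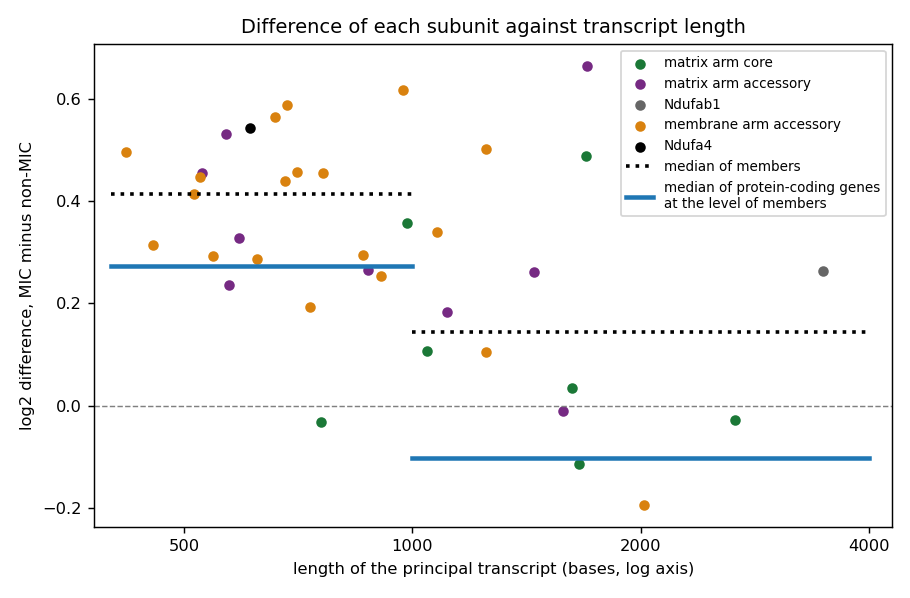
Each point is a member, at the length of its principal transcript (log axis) and its log2 difference, coloured by place in the enzyme. Dotted black lines are the medians of members under and over 1000 bases (0.41 and 0.14), and blue lines those of protein-coding genes in the same range of mean level (0.27 and -0.10).

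Promoters of the members were searched for motifs of factors known for nuclear genes of mitochondria, from 250 bases before to 50 after the start of the RefSeq transcript (GRCm38.p6). A promoter was found for 33 of the 37, and both strands were searched. The letters of the NRF1 motif (GCGCANGCG) were in 8 of 33 promoters (24.2%), against 13.3% of 11996 protein-coding genes of the table and 7.03% of all 27025 promoters. Those of YY1 (AAGATGGC) were in 7 of 33 (21.2%), against 4.61% and 3.19%. The ETS family motif (CCGGAAG) was in 4 (12.1%), against 17.5% and 9.93%, and that of the SP family (GGGCGGG) in 12 (36.4%), against 48.9% and 27.9%. In all 7 members with the YY1 letters, the ATG inside them is the annotated start codon of the principal transcript, so this motif shares its place with the start of translation. The stretches below are examples, with the motif in capitals and the transcript strand shown. Ndufs4, Ndufc1, Ndufs6 and Ndufb4 were among the members with the largest differences, Ndufs6 held both motifs, and Ndufs5 ranked 13 of 37. The other members with the YY1 letters were Ndufb8 (0.44), Ndufa3 (0.41), Ndufa9 (0.26) and Ndufs7 (-0.03). Those with the NRF1 letters, beside Ndufs6, Ndufb4 and Ndufs5, were Ndufa6 (0.33), Ndufa8 (0.30), Ndufa11 (0.29), Ndufa5 (0.27) and Ndufb10 (0.19). Ndufc2 (0.59) and Ndufa4 (0.54) held none of the motifs. Whether the motifs go with the difference was not tested. The Ndufs4 stretch is chr13:114388045-114388074, that of Ndufc1 is chr3:51408915-51408944, and those of Ndufs6 are chr13:73328433-73328462 for YY1 and chr13:73328478-73328507 for NRF1, all on the minus strand.
Ndufs4, YY1: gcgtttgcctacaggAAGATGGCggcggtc
Ndufc1, YY1: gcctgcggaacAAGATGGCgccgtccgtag
Ndufs6, YY1: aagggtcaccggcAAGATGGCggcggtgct
Ndufs6, NRF1 on the reverse strand: gactgctgtgCGCCTGCGCcggcacttggt
The promoter of Ndufb4 held the NRF1 letters at 3 places, of which the nearest to the start is chr16:37654371-37654400, and the match in Ndufs5 is chr4:123718265-123718294, both on the minus strand.
Ndufb4, NRF1: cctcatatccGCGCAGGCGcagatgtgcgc
Ndufs5, NRF1: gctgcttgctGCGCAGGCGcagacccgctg
A match describes the letters only, and no factor was measured on these promoters. At the level of their own transcripts, Nrf1, Gabpa, Gabpb1, Gabpb2 and Yy1 differed by between -0.35 and 0.13. Of these 5, only Gabpb1 lay above 0, where 39.0% of protein-coding genes in the members' range of mean level did. Nrf1 and Gabpb2 were lower in MICs in all 3 pairs, as were 18.8% of all genes and 30.8% of those in that range. Nrf1 was nearly level in pair 3 (-0.0038) and Gabpb2 in pair 2 (-0.011).

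The mitochondrial genes for the membrane arm core lay on the other side of 0. The 5 of 7 in the table (mt-Nd1, mt-Nd2, mt-Nd4, mt-Nd5 and mt-Nd6) all had a difference below 0, with a median of -0.28. Within each pair all 5 lay on the same side of 0, but the side changed, with medians of -1.29 in pair 1, 0.94 in pair 2 and -0.44 in pair 3. mt-Nd1 was at 37868, 99605 and 87168 in MICs and at 85981, 52056 and 118570 in non-MICs. Only in pair 2 was the MIC library the higher of the pair (difference -0.23 ± 0.45 SE). The smallest limma adjusted p-value with the block among the 5 was 0.662. Libraries were made from polyadenylated RNA, and these genes varied widely between libraries, with mt-Nd2 between 19922 and 72791.

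**Figure D5:**
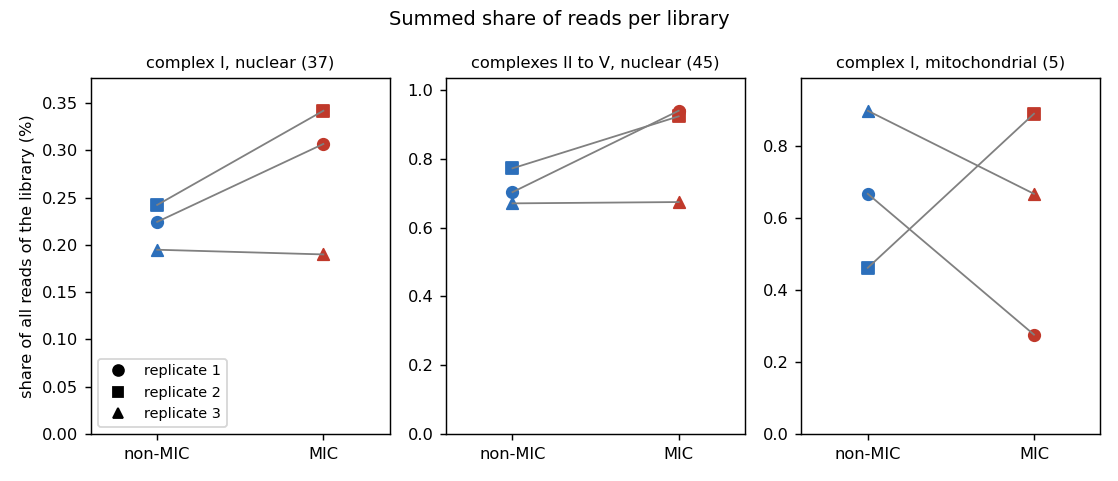
Summed share of all reads (%) of the 37 nuclear complex I members, the 45 nuclear subunits of complexes II to V and the 5 mitochondrial complex I genes, with grey lines joining same-numbered libraries. Nuclear complex I goes from 0.224% to 0.307% and from 0.242% to 0.342% in pairs 1 and 2 and from 0.195% to 0.190% in pair 3, while the mitochondrial genes go down in pairs 1 and 3 and up in pair 2.

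Other respiratory complexes had differences of similar size. The 45 nuclear subunits of complexes II to V had a median of 0.34, with 35 above 0 and 12 higher in MICs in all 3 pairs, and 0 passed limma or edgeR with the block. Their pair medians were 0.47, 0.59 and -0.03. The median was 0.12 for the 4 subunits of complex II, 0.36 for the 9 of complex III, 0.39 for the 15 of complex IV and 0.34 for the 17 of complex V. The difference between complex I and these complexes was not tested.

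Assembly factors, which build complex I and are not part of it, had a smaller median, 0.13 over 19 genes in the table, with 12 above 0. In MICs 5 of them were higher in all 3 pairs (Ndufaf4, Ndufaf5, Ndufaf6, Tmem126b and Tmem70), against 12.5% of all genes. Lower in all 3 pairs were 3 of the 19 (Acad9, Foxred1 and Aifm1), against 18.8% of all genes. Their median principal transcript was 1636 bases, against 861 for the 37 members, and the part of length was not tested. Tmem70, a membrane protein known for the assembly of ATP synthase as well, was at 5506, 5554 and 1265 in MICs and at 2508, 2081 and 1197 in non-MICs. MICs were 2.20 and 2.67 times as high in pairs 1 and 2 and 1.06 times in pair 3. It was the only gene of this list past the threshold, by edgeR with the block (adjusted p = 0.00216), whereas its limma adjusted p-value was 1 without the block and 0.286 with it (difference 0.88 ± 0.59 SE).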

How the data were processed

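The deposited signal is a table of gene counts that the authors scaled to a common library total. The submitters' processing notes name STAR, HTSeq and mm10/GRCm38, the paper's methods name Bowtie2, and versions are not given in the sources used here. Dividing by the value of 1 read gave whole reads, within 0.01, for between 99.97% and 100.00% of values. Symbols, exons and transcripts came from GENCODE vM21 (22161 of 22310 identifiers). Each member is described by its APPRIS principal transcript. limma 3.58.1 (R 4.3.3; lmFit, eBayes with a trend) was run on log2(value + 1) over 22310 genes without a block, with Benjamini-Hochberg adjustment at 0.05. edgeR 4.0.16 and DESeq2 1.42.0 were run on recovered reads. Replicate numbers pair the libraries: departures from group means of same-numbered libraries correlated at 0.757, 0.820 and 0.875 over 14718 genes and those of other numbers between -0.643 and -0.237. Reads carry no molecular identifiers. Procedures were tested on simulated data. Members and lists were chosen with earlier results of these data known. Members named with values in every library are the core subunits, the 5 with the smallest p-value with and without the block, those below 0, the highest and lowest per kb, Ndufa4 and Ndufab1, with Ndufa7, Ndufb4 and Ndufs5 added after their values were seen. The values of 1 core subunit are not reported here. Pandas 2.3.3 and numpy 2.4.6 in Python 3.11.15 were used for counts and figures.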

Additional observations from a re-analysis of the deposited data

How the results depend on the processing

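Pseudocounts of 0.1 and 10, a filter at a mean of 10, TMM, DESeq2 and quantile scaling, limma without a trend, edgeR, DESeq2, the replicate block, each library or pair left out and, chosen after seeing the data, the block with TMM scaling and copies added to Ndufs5 and Ndufa12 were tried, 27 settings in all. No member passed an adjusted p-value of 0.05 in any of them. With the replicate block the median difference of the members stayed at 0.31, 0 passed and 32 lay above 0, and the block changed no call of a member. Outside the members it moved the calls over all genes from 0 to 29 in limma and from 0 to 315 in edgeR. Among them were Thy1 in both, 6 of the 10 basal or myoepithelial markers in limma and Tmem70 in edgeR. The number of members above 0 was 34 or 35 with DESeq2 scaling, DESeq2 or quantile scaling. Over the scalings, 14 to 18 were higher in all pairs, while the share of all genes went from 12.5% in the main setting to 16.3% with DESeq2 scaling. The count of members higher in all pairs was not recomputed for fits that leave the values as they are or leave out a library. With libraries or pairs left out, the median ranged from 0.12 to 0.65 and the number above 0 from 25 to 35. Of the 17 members named by the rule, 6 changed sign in some setting. Ndufs1 was at 0.0028 with DESeq2 scaling, 0.025 with quantile scaling, 0.026 by DESeq2 and 0.0035 by DESeq2 with the block. Ndufv3 was at 0.021, 0.055, 0.024 and 0.021 in the same settings, and Ndufs7 at 0.044 with quantile scaling. With libraries left out, Ndufs1 ranged from -0.19 to 0.13, Ndufs3 from -0.044 to 0.31, Ndufs7 from -0.59 to 0.50, Ndufv1 from -0.26 to 0.11, Ndufv3 from -0.12 to 0.13 and Ndufab1 from -0.0057 to 0.54. With a pair left out and the block kept, Ndufs3 was at -0.0063 without replicate 1, Ndufs7 at 0.064 without replicate 2 and Ndufv3 at 0.021 and 0.016 without replicates 2 and 3. The cause was not tested.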
